A study of Mus musculus with 6 samples.

Results

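The cathepsins are the proteases of the lysosome and its relatives, and 10 of their genes were followed in ear skin of mice used as a model of allergic contact dermatitis (ACD): the cysteine cathepsins Ctsb, Ctsc, Ctsh, Ctsk, Ctsl, Ctss and Ctsz, the aspartic cathepsins Ctsd and Ctse, and the serine cathepsin Ctsg. They were chosen by gene symbol, whatever their level, though with earlier results of these data known. All 10 were found among the 19309 genes of the deposited table. All 10 also had enough reads to be tested, with 15317 genes tested in all. The 6 libraries were 3 DNFB ears and 3 vehicle ears of the same 3 C57BL/6 mice, aged 6 to 8 weeks, with 1 library of each kind per mouse. All mice first received 25 µL of 0.5% DNFB (dinitrofluorobenzene, a small reactive chemical that couples to proteins and so becomes an allergen), by a route that the labels call intraperitoneal smearing. From day 6, over 6 days, 10 µL of 0.25% DNFB went onto the left (DNFB) ear, while 10 µL of its solvent, 80% acetone with 20% olive oil, went onto the right (vehicle) ear. A vehicle ear is therefore the ear of an animal that had also met the hapten, and no ear of an untreated mouse entered the comparison. Polyadenylated RNA of whole ear tissue was sequenced, with single-end reads of 50 bases.

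Cathepsins are made as inactive precursors, reach the lysosome by way of sorting receptors that recognise mannose 6-phosphate, and become active when acid and other proteases remove the propeptide. Most cleave proteins taken up or turned over by the cell, but some have narrower tasks: cathepsin S trims the invariant chain that guards MHC class II molecules, cathepsin C activates the serine proteases of granules, and cathepsin K digests collagen. Cathepsin G is stored in granules of neutrophils and mast cells, and cathepsin E is found mostly in endosomes, so neither is a lysosomal enzyme in the strict sense. Cystatins and stefins hold the cysteine cathepsins in check.

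The libraries held 19556700 to 20336900 estimated counts. Across genes, log2 CPM (counts scaled for library depth) correlated at 0.962 to 0.987 among DNFB ears and at 0.985 to 0.992 among vehicle ears, against 0.842 to 0.913 between the groups. Markers of monocytes and macrophages summed to 8414, 7079 and 5046 TPM in the DNFB ears of mice 1, 2 and 3, against 1706, 1803 and 1980 TPM in their vehicle ears, and 11 of the 12 genes on that list rose. TPM are the authors' values of transcript abundance, scaled for gene length and depth, so they allow levels of different genes to be compared. All 8 neutrophil markers rose, with sums of 6591, 5726 and 3137 TPM in DNFB ears and of 156, 272 and 112 TPM in vehicle ears, again least in the DNFB ear of mouse 3. Keratinocyte markers summed to 7228 to 12132 TPM in DNFB ears and to 12728 to 16273 TPM in vehicle ears, and 3 of the 8 in the table fell. By the test described below, 25.9% of all genes rose and 25.4% fell. Granulocyte precursor markers (Mpo, Elane, Prtn3 and Ms4a3) were near 0, with sums of 1.03 to 1.38 TPM in DNFB ears and 0.87 to 1.41 TPM in vehicle ears. In bulk tissue, more cells of a type and more RNA per cell cannot be told apart, and the part that these marker shifts had in the cathepsin values was not tested. Whole counts (within 0.001) made up 38.3% and 35.8% of the values above 0 in the DNFB ears of mice 2 and 3, against 62.4% in the DNFB ear of mouse 1 and 63.3% to 63.7% in vehicle ears. The cause of that split is not given in the sources used here and its part in the results was not tested.

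Of the 10 cathepsins 7 rose in DNFB ears (Ctse, Ctss, Ctsc, Ctsz, Ctsb, Ctsh and Ctsl) and none fell, while Ctsd, Ctsk and Ctsg did not pass. The test was edgeR's quasi-likelihood test with Benjamini-Hochberg adjustment over all genes tested and a threshold of 0.05. In the same test 51.3% of all genes passed, 25.9% higher and 25.4% lower. The median log2 fold change was 1.08 over the 10 cathepsins and −0.02 over all genes tested. TPM of the 7 genes that rose did not overlap between the groups, and 28.7% of all genes were apart in that direction. Ctsd and Ctsk were apart with DNFB ears lower, as were 32.4% of all genes, which makes 61.1% in either direction. Without the DNFB ear of mouse 3, which stood nearest to the vehicle ears, 7 cathepsins again rose and 0 fell. The sum of all 10 was 7142, 6818 and 4763 TPM in the DNFB ears of mice 1, 2 and 3, against 3373, 3345 and 3270 TPM in the vehicle ears, a ratio of means of 1.87. The vehicle ears were thus close together and the DNFB ears spread, the one of mouse 3 lying nearest to the vehicle ears. The difference lay in the 7 cysteine cathepsins, of which all but Ctsk rose. They summed to 5178 ± 1270 TPM in DNFB ears and 2120.4 ± 11.3 TPM in vehicle ears (mean ± SD, n = 3 each). The aspartic pair stood at 1058 ± 70.5 TPM in DNFB ears and 1203 ± 63.9 TPM in vehicle ears.

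**Figure D1:**
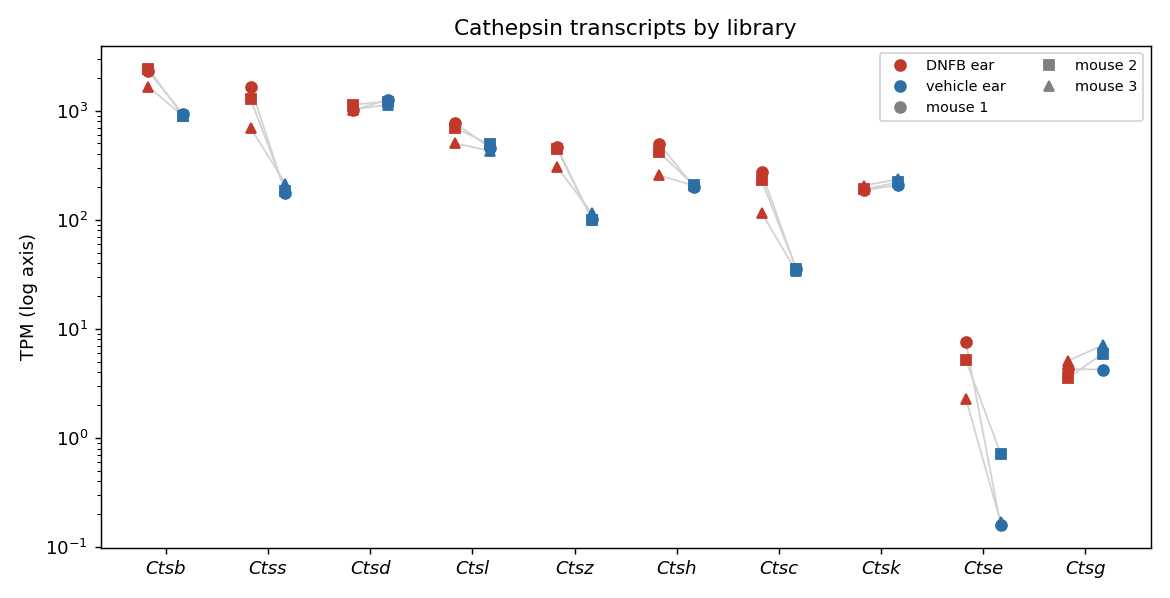
TPM of the 10 cathepsin genes on a log axis, 1 point per library, with grey lines joining the DNFB ear (left) and the vehicle ear (right) of a mouse. Ctsb had the highest mean TPM in DNFB ears and Ctsd in vehicle ears, and the groups of Ctsg overlap.

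Ctss, the endopeptidase of antigen-presenting cells, had the largest gain in TPM after Ctsb. It measured 1644, 1278 and 695 TPM in the DNFB ears of mice 1, 2 and 3, against 177, 185 and 215 TPM in their vehicle ears. Every DNFB ear lay above every vehicle ear, and the DNFB ear of mouse 3 was the lowest of its group. The fitted rise was 2.66 ± 0.30 on the log2 scale (SE, adjusted p = 0.000578), a 6.34-fold rise, and 4.10% of the genes tested had a larger one. By mean TPM, Ctss ranked 145th of 19309 genes in DNFB ears and 726th in vehicle ears. The class II presentation list, which Ctss serves, held 9 genes of 10 that rose and 0 that fell, with a median of 1.66 on the log2 scale. Of all genes tested, 25.9% rose and 25.4% fell. H2-Oa and Ciita, the class II transactivator, rose by 2.15 and 2.07 on the log2 scale, H2-Ab1 by 1.75 and H2-Eb1 by 1.70, and H2-Ob did not pass (0.53, adjusted p = 0.309). The ratio of Ctss to Cd74, the gene of the invariant chain, was 0.345, 0.315 and 0.219 in DNFB ears, against 0.143, 0.182 and 0.133 in vehicle ears. Ctss transcripts were thus more numerous relative to those of its substrate in every DNFB ear.

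Ctsk, the collagenase known from osteoclasts and fibroblasts, is the chromosomal neighbour of Ctss, with no protein-coding gene between them in the RefSeq annotation of GRCm38.p6. It measured 187, 189.5 and 205 TPM in DNFB ears, against 208, 221 and 236 TPM in vehicle ears. All DNFB ears lay below all vehicle ears by a narrow margin. The log2 fold change was −0.17 ± 0.10 (SE, adjusted p = 0.171), with an approximate 95% interval of −0.44 to 0.09. The ratio of Ctss to Ctsk was 8.79, 6.74 and 3.39 in DNFB ears and 0.852, 0.837 and 0.911 in vehicle ears. The neighbours were thus near parity in vehicle ears and parted in every DNFB ear. An exact two-sided permutation test on this ratio gave p = 0.10, the smallest that 3 ears against 3 can give. As Ctss was higher and Ctsk lower in every DNFB ear, that outcome was fixed beforehand and adds nothing to the values. The test also took no account of which ears shared a mouse. The ratio of Ctsk to Col1a1, a collagen chain of fibroblasts, was 0.231, 0.184 and 0.284 in DNFB ears, against 0.338, 0.457 and 0.352 in vehicle ears. Col1a1 was itself higher in every DNFB ear, and it is only 1 of 7 fibroblast markers. Of these markers 2 rose and 2 fell, beside 25.9% and 25.4% of all genes tested. Their sum was 5229 to 6063 TPM in DNFB ears and 6274 to 6973 TPM in vehicle ears, so it was lower in DNFB ears, as Ctsk was. Of 6 osteoclast markers, Dcstamp, Oscar and Calcr had too few reads to be tested, Ocstamp and Atp6v0d2 rose and Acp5 did not pass, and their sum was 43.9 to 57.0 TPM in DNFB ears and 43.0 to 56.9 TPM in vehicle ears. Their part in the Ctsk value was not tested.

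The annotated starts of these neighbours, and of 5 other cathepsins, had a promoter window in RefSeq (GRCm38.p6, 250 bases before the start and 50 after), and the 4 below show members that rose or did not pass together with the motifs found. Capitals mark matches, on either strand, to an interferon-response core (GAAA, any 2 bases, GAAA), a PU.1 site (GAGGAAGT), a GAS element (TTCNNNGAA), an E-box (CACGTG) or the CLEAR element of lysosomal genes (TCACGTGA), which contains the E-box.
Ctss promoter (chr3:95526536-95526835, + strand): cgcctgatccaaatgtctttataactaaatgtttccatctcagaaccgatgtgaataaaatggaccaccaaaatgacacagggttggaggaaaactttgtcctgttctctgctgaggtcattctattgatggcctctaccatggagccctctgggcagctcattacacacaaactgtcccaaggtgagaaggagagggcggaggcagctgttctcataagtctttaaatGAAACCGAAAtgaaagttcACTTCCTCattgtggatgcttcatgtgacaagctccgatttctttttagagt
Ctsk promoter (chr3:95498960-95499259, + strand): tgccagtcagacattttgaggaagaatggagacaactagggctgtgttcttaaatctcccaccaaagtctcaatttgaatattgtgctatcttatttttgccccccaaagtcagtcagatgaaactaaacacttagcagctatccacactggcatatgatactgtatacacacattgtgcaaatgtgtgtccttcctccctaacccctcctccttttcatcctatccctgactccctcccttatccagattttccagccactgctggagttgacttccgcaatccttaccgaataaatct
Ctsc promoter (chr7:88277835-88278134, + strand): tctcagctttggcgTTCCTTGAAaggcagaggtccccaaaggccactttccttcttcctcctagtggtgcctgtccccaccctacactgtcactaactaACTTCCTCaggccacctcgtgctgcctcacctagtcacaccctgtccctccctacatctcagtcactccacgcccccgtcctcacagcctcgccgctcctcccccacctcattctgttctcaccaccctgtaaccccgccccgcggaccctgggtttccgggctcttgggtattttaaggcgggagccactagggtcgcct
Ctsd promoter (chr7:142387778-142388077, − strand): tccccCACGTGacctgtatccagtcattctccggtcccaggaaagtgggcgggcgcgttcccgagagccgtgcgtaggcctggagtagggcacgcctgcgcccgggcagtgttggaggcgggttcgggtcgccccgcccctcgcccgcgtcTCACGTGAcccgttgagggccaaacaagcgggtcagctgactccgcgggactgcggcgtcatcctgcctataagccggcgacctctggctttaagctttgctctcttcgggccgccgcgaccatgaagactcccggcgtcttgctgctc

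The Ctss window held the interferon-response core beginning 21 bases before the start, and a PU.1 match on the opposite strand beginning 2 bases before it. The Ctsc window held a PU.1 match, also on the opposite strand, beginning 151 bases before the start and a GAS match beginning 236 bases before it. The Ctsk window held none of the 5 motifs. The Ctsd window held the CLEAR element beginning 99 bases before the start and a second E-box at 245 bases. Of 32851 windows of this length in the table, 3.44% held the interferon-response core, 3.20% the PU.1 site, 8.30% the GAS element, 7.15% the E-box and 0.974% the CLEAR element. Among the other cathepsins with a window, Ctsl held an E-box, Ctsg a GAS match and Ctsz none of the 5 motifs. Ctsb, Ctse and Ctsh were not in the table. A match is only a string of letters, and no binding was measured. Of the factors known for such sequences, Spi1, which encodes PU.1, rose by 2.72 on the log2 scale, Irf1 by 3.31 and Irf8 by 3.19, and, of the family of factors known to bind the CLEAR element, Tfec rose by 4.01 and Tfe3 by 0.95, while Tfeb (0.09, adjusted p = 0.503) and Mitf (−0.15, adjusted p = 0.311) did not pass. Tfe3 was named outside the rule, after its value was seen. In all, 6 of 9 transcription factors on that list rose, beside 25.9% of all genes tested, and Cebpa fell by 1.15.

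Ctsc, the dipeptidyl peptidase that activates granule serine proteases, rose 5.71-fold. It measured 273, 232 and 116 TPM in the DNFB ears of mice 1, 2 and 3, against 35.4, 35.5 and 33.6 TPM in their vehicle ears. The vehicle ears were nearly level, and the DNFB ear of mouse 3 had less than the other DNFB ears but more than any vehicle ear. In the fit it rose by 2.51 ± 0.31 on the log2 scale (SE, adjusted p = 0.000866). Of the 9 granule proteases listed here as its possible targets, Elane and Prtn3, the elastase and proteinase 3 of neutrophil granules, had too few reads to be tested. Of the other 7, 6 rose: Gzma by 7.04 and Gzmb by 7.03 on the log2 scale (granzymes of killer lymphocytes), Gzmc by 3.36, and the mast cell proteases Cma1, Tpsb2 and Mcpt4 by 0.75, 0.45 and 0.44. With the mouse as a block 5 of these rises passed, and 3 when both ears of mouse 2 were left out. Of all genes tested, 25.9% rose in the main fit.

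The seventh was Ctsg, itself a member, and the one serine cathepsin here. It measured 4.28, 3.55 and 5.10 TPM in DNFB ears, against 4.24, 5.94 and 7.07 TPM in vehicle ears. The groups overlapped, and the log2 fold change was −0.39 ± 0.25 (SE, adjusted p = 0.221), with an approximate 95% interval of −1.09 to 0.30. Its depth was low, at 40 to 59 counts in DNFB ears and 48 to 78 in vehicle ears. Mature neutrophil markers rose by 3.99 to 8.67 on the log2 scale in the same libraries, while the granulocyte precursor markers stayed near 0. The ratio of Ctsg to Cma1, a chymase of mast cells, was 0.0131, 0.0113 and 0.0150 in DNFB ears, against 0.0226, 0.0294 and 0.0354 in vehicle ears. Of the 10 mast cell markers 6 rose and 1 fell (median log2 fold change 0.45), beside 25.9% and 25.4% of all genes tested.

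**Figure D2:**
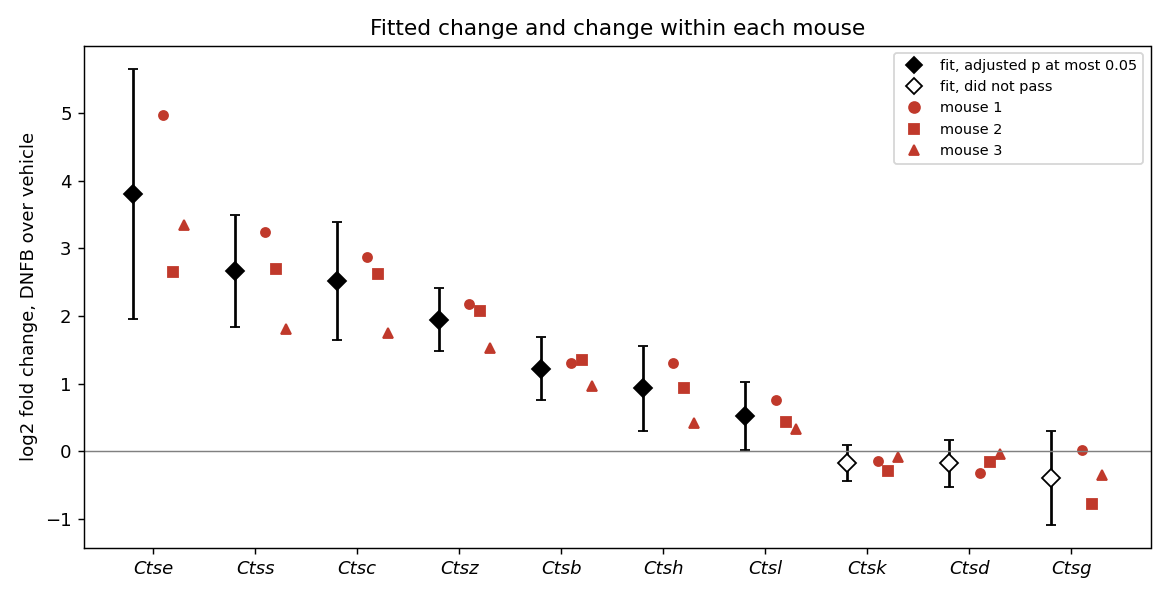
Log2 fold change of DNFB over vehicle ears for each cathepsin. Diamonds show the fitted value with its approximate 95% interval, filled where the gene passed, and red points the change within each mouse. Ctse was highest at 3.81 and its 3 mice spread from 2.65 to 4.98, and the intervals of Ctsd, Ctsk and Ctsg include 0.

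Ctsb, which cuts both within proteins and dipeptides from their ends, was the most abundant cathepsin in DNFB ears. It measured 2292, 2421 and 1656 TPM there, against 929, 887 and 895 TPM in vehicle ears. The groups were far apart relative to the spread of either. On the log2 scale it rose by 1.22 ± 0.17 (SE, adjusted p = 0.00117), so that this 2.34-fold rise, though smaller than that of Ctss as a fold, was larger in TPM. By mean TPM, Ctsb ranked 74th of all genes in DNFB ears and 173rd in vehicle ears.

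Ctsl, the endopeptidase whose loss gives mice an abnormal coat and thickened epidermis, rose least among the genes that passed. It measured 774, 698 and 502 TPM in DNFB ears, against 456, 490.4 and 429 TPM in vehicle ears. In TPM the groups did not overlap, but the DNFB ear of mouse 3 lay only just above the highest vehicle ear. In CPM, scaled as in the test, they overlapped, at 496 in the DNFB ear of mouse 3 and 503 in the vehicle ear of mouse 2. On the log2 scale the rise was 0.52 ± 0.18 (SE, adjusted p = 0.0452), and 22.4% of all genes had a larger one. The call ended when the DNFB ear of mouse 1 or 2 was left out (0.39 and 0.49 on the log2 scale, adjusted p = 0.127 and 0.124), and when the vehicle ear of mouse 1, 2 or 3 was (0.53, 0.61 and 0.45, adjusted p = 0.114, 0.0663 and 0.128). It passed when the DNFB ear of mouse 3 was left out (0.68, adjusted p = 0.00281), and missed the threshold with upper-quartile scaling (adjusted p = 0.0747) and with no filter on low counts (adjusted p = 0.0506).

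Ctsz and Ctsh are exopeptidases, Ctsz removing residues from the carboxyl end and Ctsh mainly from the amino end. Ctsz measured 460, 443 and 305 TPM in DNFB ears, against 102, 100.3 and 114 TPM in vehicle ears. Its log2 fold change of 1.95 ± 0.17 (SE, adjusted p = 0.000222) had the smallest adjusted p of the 10 genes, and the rise was 3.86-fold. The 3 mice were closer together than for Ctss, with within-mouse log2 ratios of 2.18, 2.07 and 1.52 for Ctsz, against 3.24, 2.70 and 1.81 for Ctss. Ctsh measured 494, 414 and 255 TPM in DNFB ears, against 200.4, 207 and 205 TPM in vehicle ears. The vehicle ears were again level, whereas the DNFB ears spread. The log2 fold change of Ctsh was 0.94 ± 0.23 (SE, adjusted p = 0.0120). Its call ended without both ears of mouse 1 (0.72, adjusted p = 0.0827) or of mouse 2 (0.94, adjusted p = 0.115), and remained without any single library. The change within mouse 3 was the smallest of the 3 mice for Ctss, Ctsc, Ctsz, Ctsb, Ctsh and Ctsl.

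Ctsd, the main aspartic protease of lysosomes, was the most abundant cathepsin in vehicle ears. It measured 1005, 1135 and 1021 TPM in DNFB ears, against 1262, 1212 and 1135 TPM in vehicle ears. The highest DNFB ear and the lowest vehicle ear, 1134.5 and 1135.1 TPM, all but met. In CPM, scaled as in the test, the groups overlapped, at 1260 in the DNFB ear of mouse 2 and 1185 in the vehicle ear of mouse 3. The log2 fold change was −0.18 ± 0.13 (SE, adjusted p = 0.270), with an approximate 95% interval of −0.53 to 0.17. The ratio of Ctsb to Ctsd was 2.28, 2.13 and 1.62 in DNFB ears and 0.736, 0.732 and 0.788 in vehicle ears, so the order of these most abundant cathepsins was opposite in the groups, in every library.

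Ctse, the second aspartic protease, known from gastric epithelium and antigen-presenting cells, had the largest fold change of the 10 from the lowest level. It measured 7.52, 5.16 and 2.30 TPM in DNFB ears, against 0.16, 0.72 and 0.17 TPM in vehicle ears. Every DNFB ear was above every vehicle ear. These rest on 188, 127 and 58 counts in DNFB ears and 4, 18 and 4 in vehicle ears, so the denominator is poorly known. The fitted log2 fold change was 3.81 ± 0.67 (SE, adjusted p = 0.00327), with an approximate 95% interval of 1.96 to 5.66. It was 4.93 without the vehicle ear of mouse 2, which held most of the vehicle counts, 4.92 without both ears of that mouse, and 3.04 without both ears of mouse 1.

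The order of levels differed between the groups. In DNFB ears mean TPM ran from Ctsb (2123 ± 410) over Ctss (1206 ± 478), Ctsd (1053 ± 70.6), Ctsl (658 ± 140.2), Ctsz (402 ± 84.9), Ctsh (387 ± 122), Ctsc (207 ± 81.5) and Ctsk (194 ± 9.86) to Ctse (4.99 ± 2.61) and Ctsg (4.31 ± 0.78) (mean ± SD, n = 3). Of neighbours in that order, Ctss overlapped Ctsd, Ctsz overlapped Ctsh, Ctsh overlapped Ctsc, Ctsc overlapped Ctsk and Ctse overlapped Ctsg across libraries. In vehicle ears it ran from Ctsd (1203 ± 63.8) over Ctsb (903 ± 22.1), Ctsl (458.5 ± 30.8), Ctsk (222 ± 13.9), Ctsh (204 ± 3.32), Ctss (192 ± 19.8), Ctsz (105 ± 7.76), Ctsc (34.9 ± 1.06) and Ctsg (5.75 ± 1.42) to Ctse (0.35 ± 0.32), and Ctsh overlapped Ctss.

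As a share of the summed TPM of the 10 genes, Ctss took 23.0%, 18.7% and 14.6% in DNFB ears, against 5.25%, 5.54% and 6.57% in vehicle ears. Ctsd took 14.1%, 16.6% and 21.4% in DNFB ears, against 37.4%, 36.2% and 34.7% in vehicle ears. Ctsd thus took a smaller share and Ctss a larger one in all DNFB ears, and the DNFB ear of mouse 3 was the nearest to the vehicle ears for both. The level of Ctsd itself did not pass (−0.18 on the log2 scale, adjusted p = 0.270 by edgeR), while the pool was larger in every DNFB ear. Ctsb averaged 34.1 ± 1.79% in DNFB ears and 27.1 ± 0.54% in vehicle ears, and Ctsz 6.44 ± 0.04% in DNFB ears and 3.17 ± 0.28% in vehicle ears (mean ± SD, n = 3 each). Ctsl took 10.5 ± 0.30% in DNFB ears and 13.8 ± 0.80% in vehicle ears, although its own level rose, and Ctsk 3.24 ± 0.93% in DNFB ears and 6.66 ± 0.52% in vehicle ears. The share of Ctsh was 6.11 ± 0.78% in DNFB ears and 6.13 ± 0.18% in vehicle ears. Shares of 1 pool depend on each other, and the tests on them took no account of which ears shared a mouse. In exact two-sided permutation tests over the 6 libraries every share other than that of Ctsh gave p = 0.10, the smallest possible with 20 splits (adjusted p = 0.111 over the 10 genes), and Ctsh gave p = 1.00. For Ctsd and Ctsk that outcome was fixed beforehand. Their TPM were lower, and the summed TPM of the pool higher, in every DNFB ear than in any vehicle ear.

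**Figure D3:**
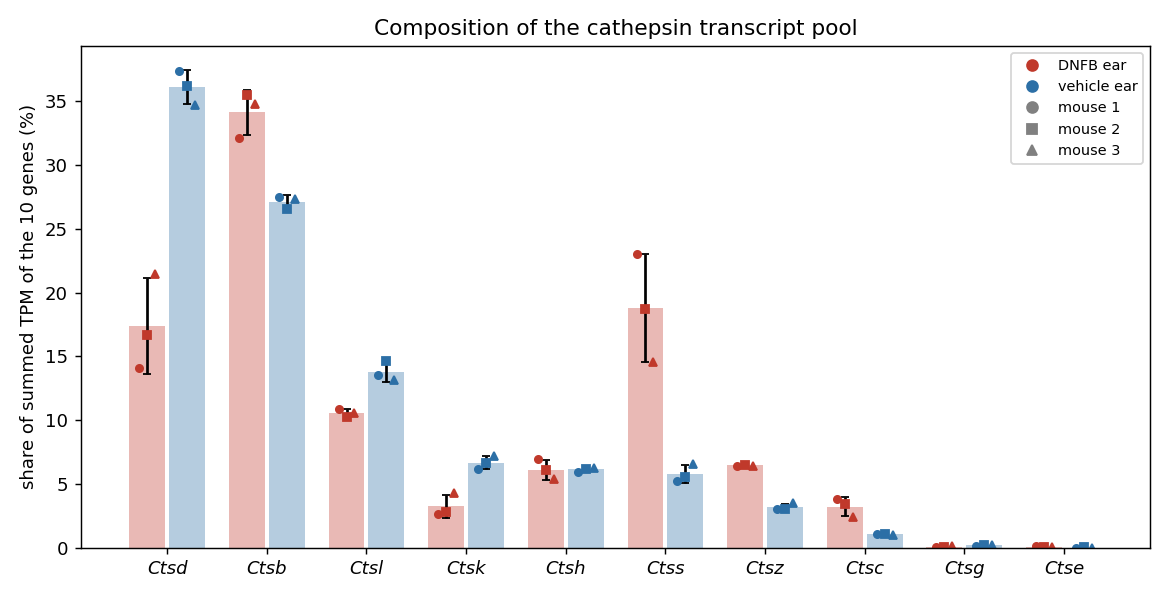
Share of the summed TPM of the 10 cathepsins taken by each gene, in percent. Bars are means of 3 ears with the SD, points are libraries, and DNFB stands left of vehicle. Ctsd averages 17.4% in DNFB ears against 36.1% in vehicle ears, and Ctss 18.8% against 5.79%.

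Most of these genes are expressed by macrophages, and their levels were therefore also set against Csf1r, the receptor of macrophage growth factor, in the same library. Csf1r itself rose by 1.53 on the log2 scale, and the macrophage list by a median of 1.85 with a range of 0.06 to 7.10. Ctss per Csf1r was 6.97, 5.98 and 5.96 in DNFB ears, against 2.56, 3.19 and 3.04 in vehicle ears. Ctsc per Csf1r was 1.16, 1.09 and 0.996 in DNFB ears, against 0.511, 0.612 and 0.477 in vehicle ears. Both were higher in every DNFB ear, and the DNFB ear of mouse 3 stood with the others of its group on this scale. Ctsz per Csf1r was 1.95, 2.07 and 2.61 in DNFB ears, against 1.47, 1.73 and 1.62 in vehicle ears. Ctsb per Csf1r overlapped between the groups, at 9.72 to 14.2 in DNFB ears and 12.7 to 15.3 in vehicle ears. The ratio was lower in every DNFB ear for Ctsl (3.27 to 4.31 in DNFB ears, 6.08 to 8.44 in vehicle ears), Ctsh (1.94 to 2.18 in DNFB ears, 2.89 to 3.56 in vehicle ears) and Ctsd (4.26 to 8.75 in DNFB ears, 16.1 to 20.9 in vehicle ears). These ratios use 1 macrophage gene, and other cells also express cathepsins. In all, 14 ratios between genes were computed, those to Ctsk, Cd74, Col1a1, Cma1, Ctsd and Cst3 included. In exact two-sided permutation tests 12 gave p = 0.10, the smallest possible (adjusted p = 0.117). The other 2, Ctsb to Csf1r and Ctsb to its inhibitor gene Cstb, overlapped (exact permutation p = 0.30), and Ctsb per Cstb averaged 2.46 ± 0.60 in DNFB ears and 1.69 ± 0.16 in vehicle ears (mean ± SD, n = 3 each). For Ctss to Ctsk, Ctsb to Ctsd, Ctsd to Csf1r, Ctsk to Col1a1 and Ctsl to Cst3 the outcome was fixed beforehand. In each of these pairs the groups lay apart in TPM for both genes, in opposite directions. All these tests took no account of which ears shared a mouse.

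**Figure D4:**
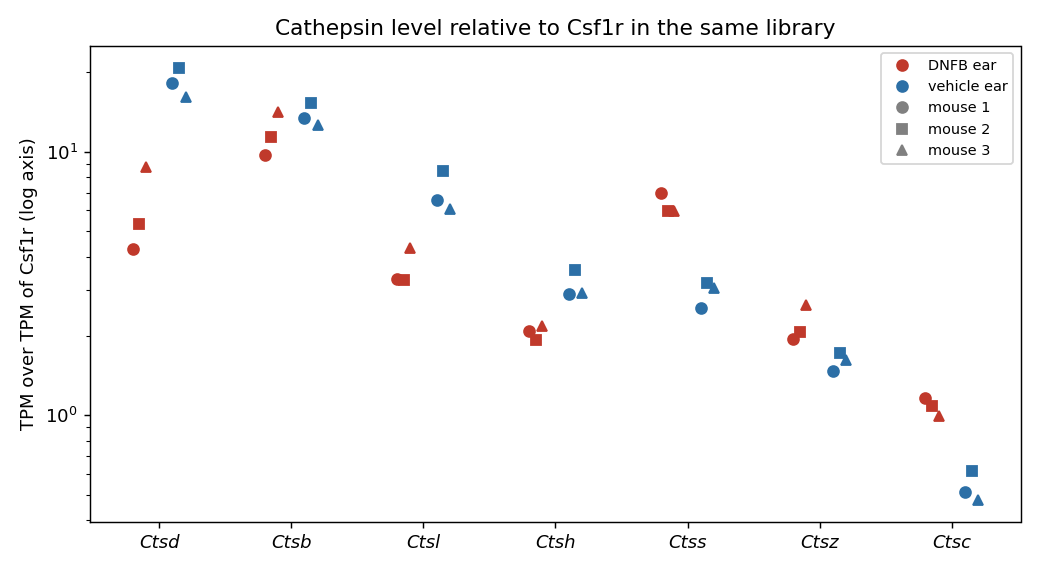
TPM of 7 cathepsins divided by TPM of Csf1r in the same library, on a log axis, with DNFB ears left of vehicle ears and 1 point per library. Ctss, Ctsc and Ctsz lie higher in DNFB ears, Ctsd, Ctsl and Ctsh lower, and Ctsb overlaps.

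Of 4 tested cathepsins outside the 10, 1 rose and 1 fell, near the 25.9% and 25.4% of all genes. Ctsw, known from cytotoxic lymphocytes, measured 17.2, 14.1 and 6.81 TPM in DNFB ears, against 3.29, 2.21 and 2.91 TPM in vehicle ears, and rose by 2.19 ± 0.36 on the log2 scale (adjusted p = 0.00246 by edgeR). Ctsf, a cysteine cathepsin, measured 21.9, 22.6 and 38.9 TPM in DNFB ears, against 70.9, 71.3 and 73.8 TPM in vehicle ears, and fell by 1.37 ± 0.22 (adjusted p = 0.00234 by edgeR). Both had DNFB and vehicle ears apart, with mouse 3 the least changed. Ctsa, the serine carboxypeptidase, and Ctso did not pass (0.28 and −0.00 on the log2 scale, adjusted p = 0.136 and 0.994). Ctsa passed when the DNFB ear of mouse 3 was left out (0.38, adjusted p = 0.0362), so that 2 of these 4 genes then rose. When both ears of mouse 2 were left out, neither Ctsw (2.00, adjusted p = 0.0619) nor Ctsf (−1.21, adjusted p = 0.0558) passed. Ctsj, Cts8 and Ctsll3, of a cluster known from placenta, had too few reads to be tested.

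Among 21 cystatins, stefins and serpins that inhibit cathepsins, 15 rose and 3 fell (median log2 fold change 1.83), by the same test in which 25.9% of all genes rose. Stfa2l1 rose by 8.45, Cstdc6 by 5.27 and Stfa1 by 4.97 on the log2 scale, and reads of these near-identical stefin copies can be shared, so the split between them is uncertain. The 3 that fell were chosen for mention after their values were seen: Cst3, the secreted cystatin C, fell by 0.80, Cst6, the cystatin of the cornifying epidermis, by 1.36, and Csta1 by 1.18. When the DNFB ear of mouse 3 was left out 5 inhibitors fell, and 0 when both ears of mouse 2 were. Serpinb3b did not pass (−0.34, adjusted p = 0.429). Cstdc4, another stefin, had 84.1 ± 51.0 TPM in DNFB ears and 0 counts in every vehicle ear, and was at least 123-fold higher against a floor of 3 counts per vehicle library, and the list's median is 1.83 with this bound too. Summed, the inhibitors stood at 6440, 6968 and 7341 TPM in DNFB ears, against 4978, 5362 and 4934 TPM in vehicle ears, a ratio of means of 1.36, beside 1.87 for the 10 cathepsins. The inhibitor sum was thus highest in the DNFB ear of mouse 3, which was the lowest DNFB ear for the cathepsins. Cst3, which fell, held much of it, at 1956, 1561 and 2077 TPM in DNFB ears, against 3208, 3406 and 3256 TPM in vehicle ears. Cst6, which also fell, stood at 131, 185 and 447 TPM in DNFB ears, against 649, 735 and 587 TPM in vehicle ears. The ratio of 1.36 and this ranking therefore depend on genes that fell and do not describe the 15 that rose. The ratio of Ctsl to Cst3 was 0.396, 0.447 and 0.242 in DNFB ears and 0.142, 0.144 and 0.132 in vehicle ears.

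Of 8 genes that process and sort cathepsins, 4 were higher and 2 lower, beside 25.9% and 25.4% of all genes tested. The share lower was thus near that of all genes. Lgmn, the asparaginyl endopeptidase that matures several cathepsins, rose by 2.58 ± 0.28, Psap, the saposin precursor, by 1.01, and the smaller mannose 6-phosphate receptor M6pr by 0.80 on the log2 scale, while the sorting receptor Sort1 fell by 0.97. The second fall, of Gnptg (by 0.35, named after its value was seen), did not pass once mouse entered the fit as a block (adjusted p = 0.0828), nor when the DNFB ear of mouse 1 or 2 or the vehicle ear of mouse 1 or 2 was left out (adjusted p = 0.0744 to 0.0935). When both ears of mouse 2 were left out, 1 gene rose and 1 fell. Gnptab, which makes the mannose 6-phosphate tag, and the larger receptor Igf2r did not pass (0.28 and 0.12, adjusted p = 0.133 and 0.552). Among other lysosomal hydrolases 21 of 32 rose and 5 fell (median log2 fold change 0.62), beside 25.9% and 25.4% of all genes. Gla, an alpha-galactosidase, rose by 2.41, Galns by 1.57, the sialidase Neu1 by 1.54 and the glucuronidase Gusb by 1.44. Among the 5 that fell, in part named after their values were seen, were Smpd1, the acid sphingomyelinase (by 1.10), Arsb (by 0.58), Fuca1 (by 0.48) and Ids (by 0.42), and Acp5 did not pass (−0.12, adjusted p = 0.434). Of these hydrolases, 12 rose when the DNFB ear of mouse 2 was left out, and 13 and 10 when the vehicle ear of mouse 1 or of mouse 2 was. The count higher was 9, with 2 lower, when both ears of mouse 1 were left out, and 3, with 1 lower, when both of mouse 2 were.

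Membrane proteins of the lysosome rose in 7 of 16 cases and fell in 1 (median log2 fold change 0.26). Of all genes tested, 25.9% rose and 25.4% fell, which makes 51.3% in either direction. When both ears of mouse 2 were left out, membrane proteins rose in 3 cases and fell in 0. Slc11a1, the metal transporter of phagosomes, rose by 3.45, Laptm5, of leukocytes, by 2.47 and Cd68, of macrophages, by 2.09, whereas Laptm4b fell by 1.34. Lamp2, a major structural protein found in lysosomes of all cells, did not pass (0.10, adjusted p = 0.519), and neither did Laptm4a (−0.07, adjusted p = 0.582). Of 18 subunits of the proton ATPase that acidifies lysosomes, 10 rose and 1, Atp6v0e, fell (by 0.32, adjusted p = 0.0439). That fall did not pass in the blocked fit (adjusted p = 0.113), with no filter on low counts (adjusted p = 0.0535), or when any single library but the DNFB ear of mouse 3 was left out (adjusted p = 0.0525 to 0.127). When both ears of mouse 2 were left out 4 subunits rose and 0 fell, and 4 fell when both of mouse 3 were. Tcirg1, the subunit known from osteoclasts and leukocytes, rose by 2.36, Atp6v0d2 by 1.27, Atp6v0c by 1.07 and Atp6v0b by 0.69, and Atp6v1f did not pass (0.02, adjusted p = 0.903).

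**Figure D5:**
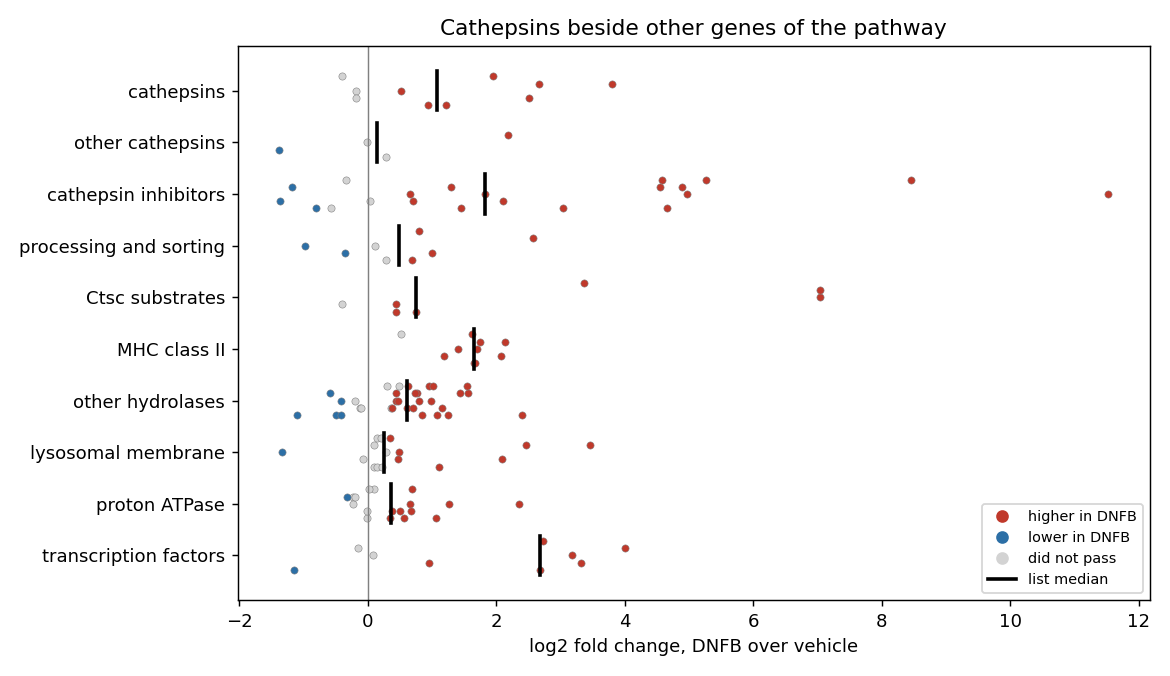
Log2 fold change, DNFB over vehicle, of each tested gene of the cathepsin list and of 9 further lists, coloured by call, with a black bar at the list median. The medians are 1.08 for the cathepsins, 0.14 for other cathepsins, 1.83 for inhibitors, 0.62 for other hydrolases, 0.26 for membrane proteins and 0.37 for the proton ATPase. The point farthest to the right is Cstdc4, whose fitted value rests on 0 vehicle counts.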

How the data were processed

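RNA of 6 ears was compared, 3 DNFB and 3 vehicle. HISAT and the build GRCm39 are named by the submitters' processing notes; for versions, annotation, gene counter and strand setting, nothing is given in the sources used here. Reads of overlapping or antisense genes may therefore be mixed. The authors deposited estimated counts, TPM and FPKM per gene and library, per the file headers. The estimated counts carry decimals as deposited and were rounded here. Groups came from the sample titles, and equal mouse numbers there mark ears of 1 animal. Deviations of same-mouse ears from their group means correlated at −0.03, −0.15 and −0.05 over all genes.

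edgeR 4.0.16 in R 4.3.3 was used with TMM scaling, filterByExpr at a minimum count of 10, no block, and the two-sided quasi-likelihood test with Benjamini-Hochberg adjustment over 15317 genes. The SE was taken as the size of the log2 fold change over the root of F, and the approximate 95% interval uses 4 residual degrees of freedom. Within-mouse log2 ratios use CPM with a prior count of 2. Alternatives were the mouse block, other scalings and filters, DESeq2 1.42.0, limma-voom (limma 3.58.1), FPKM for shares, and leaving out libraries or mice. The members and lists were chosen with earlier results of these data known. The 10 cathepsins and other cathepsins are named; from further lists, up to 4 genes with the largest change among those past the threshold and up to 2 abundant ones that did not pass, of which the text names part. Ratios between genes were chosen outside that plan. Ctsm, Ctsq, Ctsr, Cts3, Cts6, Cts7 and BC100530 were listed but not analysed here, and loricrin was missed because the list has its newer symbol. Some hydrolase genes are not reported here by name. Counts cannot separate molecules from PCR copies.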

Additional observations from a re-analysis of the deposited data

How the results depend on the processing

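The 7 cathepsins that rose numbered 5 to 7 and those that fell 0 under all 16 alternatives, and no cathepsin changed direction. Ctss, Ctsc, Ctsz, Ctsb and Ctse passed under all 16, Ctsh under 14 and Ctsl under 7, while Ctsd, Ctsk and Ctsg passed under none. With the mouse as a block (pairing by animal), 7 cathepsins rose, as without it, none fell and 6601 genes passed in place of 7862; the block changed the call of no cathepsin. Without mouse 1, 2 or 3 the number of genes passing was 4487, 2594 or 9066, and without single libraries it ran from 5763 to 9108, with fewer samples in each such fit. The cause of the lost Ctsl and Ctsh calls was not tested; their log2 fold changes ran from 0.39 to 0.68 and from 0.72 to 1.16. Counts of list members higher, re-run without each library or mouse and with the block as alternatives chosen after seeing the data, ran from 3 to 24 for the other hydrolases, from 0 to 2 for the other cathepsins, from 13 to 15 for the inhibitors, from 3 to 8 for membrane proteins from 4 to 10 for the proton ATPase, from 1 to 5 for sorting, from 3 to 6 for Ctsc targets and from 7 to 9 for class II, and stayed at 6 for transcription factors. Leaving out mouse 2 gave the lowest count of each list that varied, shared for the inhibitors with the vehicle ears of mice 1 and 3. All member shares moved by less than the spread between replicates with FPKM and without each library. Depth limits Ctse and Ctsg, which had 4 to 188 counts per library, and 3 animals limit the rest.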

Other observations

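Genes whose centred log2 CPM lay closest to each cathepsin over the 6 libraries were sought among 9132 named genes (mean log2 CPM from 4 upwards), as a description with no test. Lgmn, the endopeptidase that matures cathepsins, was the nearest gene to both Ctss and Ctsc, at root mean square differences of 0.08 and 0.10 on the log2 scale. Next came Cotl1, an actin-binding protein, for Ctss (0.10) and Cyba, a subunit of the phagocyte oxidase, for Ctsc (0.12). Cenpa, a histone of the centromere, and the MHC class I gene H2-K1 were nearest to Ctsz (0.06 and 0.07). Zswim6 and Top2a, a topoisomerase of dividing cells, were nearest to Ctsb (0.03 and 0.05), Tmsb4x, which encodes thymosin beta 4, and Stard8 to Ctsh (0.06 and 0.08), and Dhx40 and Galk2 to Ctsl (0.04 and 0.05). Among cathepsins that did not pass, Sms and Gle1 were nearest to Ctsk (0.02 and 0.03), Mta3 and Fam91a1 to Ctsd (0.04 each), and Osgin2 and Zfp970 to Ctsg (0.12 and 0.14). For Ctse the nearest were Tnfaip6, a hyaluronan-binding protein of inflamed tissue, and Lcn2, an iron-siderophore carrier, at 0.53 each, a poorer match. The libraries fall into 2 groups, so any gene with a like difference between them scores well.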
